A study of Mus musculus with 4 samples.

Results

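Peaks of H3K36me2, dimethylation of histone H3 at lysine 36, inside the bodies of noncoding genes and pseudogenes made up 1071 of the 7699 peaks called in melatonin-treated mouse bone marrow mesenchymal stem cells (13.9%, 95% Wilson interval 13.2 to 14.7). In untreated cells they made up 1103 of 8361 (13.2%, 12.5 to 13.9). A peak was counted when it overlapped by 1 bp or more the body of a gene that RefSeq (mouse genome GRCm38) does not class as protein-coding, and lay over 2 kb from every protein-coding gene body. Long noncoding RNA (lncRNA) genes held 973 of the 1071 melatonin peaks (90.8%) and 1019 of the 1103 untreated peaks (92.4%). Pseudogenes, transcribed ones included, held 84 and 76, small RNA genes held 7 and 1, and the remaining noncoding classes held 12 and 13. A peak that lay in bodies of more than 1 class counted in each, which applied to 5 and 6 peaks.

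The study had 4 libraries. The cells were mesenchymal stem cells (MSCs) grown in culture from the marrow of mice, stromal cells that can form bone, cartilage and fat. One chromatin immunoprecipitation (ChIP) library was made after 24 h with melatonin, the pineal hormone, at 1 µM, one was made from untreated cells, and each had an input library made without antibody. The series' design text speaks of cells from aged donors, while the labels of these libraries give no age, sex or strain. Histone peaks do not measure expression, so the cell type label could not be checked by marker genes. With 1 ChIP library per condition, differences between the conditions are differences between these libraries and have no replicate check. Total tags came to 14180076.5 with melatonin and 13198427.5 without, of which 1.12% and 1.24% lay in peaks.

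lncRNAs are long transcripts that do not encode a protein. Some act at the locus that makes them, as Xist and Airn do in silencing neighbouring genes, and some act elsewhere in the nucleus or cytoplasm, while many models come from transcript evidence alone and have no known role. Pseudogenes are copies of genes that have lost the coding capacity of their parent, and most are short and not transcribed. H3K36me2 is written by enzymes such as NSD1 and NSD2 and covers intergenic sequence as well as gene bodies.

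Small RNAs of the noncoding bodies are shown first because their sequence is the gene product. Of 343 miRNA genes that could hold such a peak, 1 did. This was the predicted gene Gm51270 on chromosome 17 (87220142-87220213, minus strand, GRCm38), which gives miR-12190-3p. Its melatonin peak had a fold over input of 4.93, and the untreated list had none there. Of the others, several lie inside the body of a lncRNA gene with peaks but not under a peak, among them Mir21c, Mir6368 and Mir1251. Mir21c lies in A930035F09Rik on chromosome 8. For comparison of seeds it is printed beside miR-21a-5p and miR-21b, whose genes lie elsewhere, on chromosomes 11 and 3. Mir6368 lies in 2610307P16Rik on chromosome 13, and Mir1251 lies in Rmst on chromosome 10. Sequences are RefSeq's for GRCm38.p6, 5′ to 3′, with the seed (bases 2 to 8) in capitals.
miR-12190-3p: uGGAGAACucugggggag
miR-21c: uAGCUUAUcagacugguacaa
miR-21a-5p: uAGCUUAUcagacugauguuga
miR-21b: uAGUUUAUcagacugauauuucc
miR-6368: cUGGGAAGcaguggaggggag
miR-1251-5p: aCUCUAGCugccaaaggcgcu
miR-21c and miR-21a-5p share the seed AGCUUAU, and miR-21b has AGUUUAU. Mir21c lay 8.81 kb from the nearest melatonin peak and 21.7 kb from the nearest untreated peak, so the peaks of the surrounding lncRNA body did not cover it. For Mir6368 these distances were 36.6 and 34.4 kb, and for Mir1251 they were 107 and 3.16 kb. The closest to a peak, not printed here, were Mir3966 in Gm34114, at 17.5 and 1.3 kb, and Mir6390 in Gm6145, at 1.65 and 18.9 kb.

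Of 11574 promoter windows of 9520 lncRNA genes, 63 windows of 61 genes overlapped a peak of the same gene in whole or in part. Only 9369 lncRNA genes could hold such a peak, so some of the windows could not count. In some of the 63 the annotated start itself lay outside the peak. A window ran from 250 bases before to 50 bases after the annotated start. The windows shown lie wholly under a peak and had the highest folds of their library, 2 from each library, with CpG dinucleotides in capitals because CpG content separates these starts from those of most coding genes. They are Gm46921 (chr5:118492581-118492880, minus strand) and Gm34450 (chr1:82825287-82825586, plus strand) from the melatonin list, and Gm6209 (chr3:50586685-50586984, minus strand) and 1700010L04Rik (chr7:82851349-82851648, plus strand) from the untreated list, all from RefSeq's GRCm38.p6 promoter table.
Gm46921: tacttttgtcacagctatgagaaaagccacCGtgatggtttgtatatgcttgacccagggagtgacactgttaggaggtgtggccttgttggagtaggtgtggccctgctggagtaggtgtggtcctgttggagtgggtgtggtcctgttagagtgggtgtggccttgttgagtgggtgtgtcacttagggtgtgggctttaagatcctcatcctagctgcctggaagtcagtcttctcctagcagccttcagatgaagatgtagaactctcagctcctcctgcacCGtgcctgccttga
Gm34450: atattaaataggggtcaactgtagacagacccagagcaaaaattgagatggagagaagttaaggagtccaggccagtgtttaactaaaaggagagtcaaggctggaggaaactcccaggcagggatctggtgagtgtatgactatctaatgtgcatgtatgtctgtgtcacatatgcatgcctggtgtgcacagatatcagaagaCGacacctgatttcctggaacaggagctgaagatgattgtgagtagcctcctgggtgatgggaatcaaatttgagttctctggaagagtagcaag
Gm6209: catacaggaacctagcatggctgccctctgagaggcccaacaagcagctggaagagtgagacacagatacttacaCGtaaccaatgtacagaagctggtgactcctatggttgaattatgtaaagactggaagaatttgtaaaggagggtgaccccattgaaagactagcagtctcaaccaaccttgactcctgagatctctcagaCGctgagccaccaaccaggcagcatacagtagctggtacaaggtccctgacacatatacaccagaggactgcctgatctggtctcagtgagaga
1700010L04Rik: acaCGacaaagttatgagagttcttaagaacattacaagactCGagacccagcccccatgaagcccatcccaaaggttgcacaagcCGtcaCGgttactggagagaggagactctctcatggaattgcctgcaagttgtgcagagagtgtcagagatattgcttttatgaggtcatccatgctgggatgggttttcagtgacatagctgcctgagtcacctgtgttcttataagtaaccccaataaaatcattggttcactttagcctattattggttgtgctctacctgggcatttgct
The windows held 2, 1, 2 and 4 CpG dinucleotides, and 52.7%, 45.3%, 49% and 45.7% of their bases were G or C. Over all 63 windows the median was 45.7% G or C and 3 CpG, against 48.3% and 4 for lncRNA windows in general and 56.7% and 13 for coding ones. Peaks were more frequent in long lncRNA genes, so the content was also compared at like length. Among lncRNA genes of 30 kb or more, 358 of 458 with a peak and 827 of 1013 without one had a promoter window. The median was 46% G or C both in the 508 windows of the former and in the 1185 of the latter. The letters TGTGGT, a core sequence of RUNX factors, occurred on either strand in 23.8% of the 63 windows (95% Wilson interval 15 to 35.6), in 20.1% of lncRNA windows and in 16.6% of all windows of that length. It occurred in 19.3% (17.2 to 21.7) of the windows of lncRNA genes with a peak anywhere in the body and in 20.2% (19.3 to 21.1) of those without, and these intervals overlapped.

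The density of peaks set the classes apart (the plot of density by sequence class). To keep short genes from gaining by the width of a peak, each peak was placed by its midpoint. In sequence over 2 kb from coding genes, lncRNA bodies held 5.51 melatonin peaks per Mb (95% Poisson interval 5.17 to 5.88) and 5.79 untreated peaks per Mb (5.44 to 6.17). Sequence in no gene body held 3.33 (3.23 to 3.43) and 3.74 (3.63 to 3.84), and bodies of coding genes held 2.17 (2.09 to 2.27) and 2.26 (2.17 to 2.35). Pseudogene bodies held 2.26 (1.72 to 2.92) and 1.95 (1.45 to 2.57). The intervals of lncRNA bodies lay above those of every other class in both libraries, except small RNA genes with 1 and 0 midpoints. The intervals count each peak as independent, while many peaks lay together within loci.

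**Figure D1:**
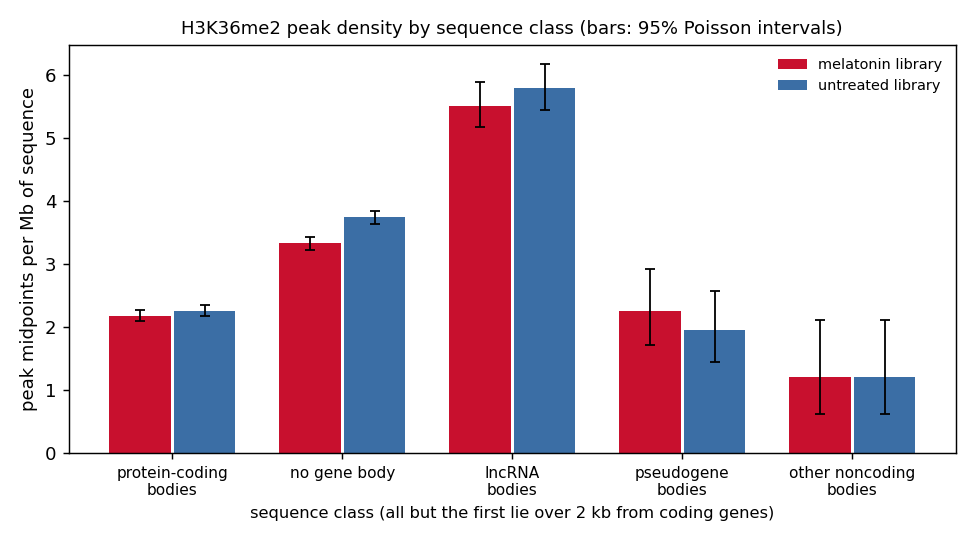
Peak midpoints per Mb of sequence (y axis) in 5 sequence classes (x axis), for the melatonin library (red) and the untreated library (blue), with 95% Poisson intervals as black bars. lncRNA bodies stand highest, at 5.51 and 5.79 per Mb, and sequence in no gene body follows at 3.33 and 3.74.

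The lncRNA excess remained when sequence was compared at the same chromosome and the same distance from a coding gene. With melatonin, 939 midpoints lay in lncRNA bodies where the density of unannotated sequence gave 676, a ratio of 1.39 (1.3 to 1.48). Without melatonin, 987 lay there against 752, a ratio of 1.31 (1.23 to 1.4). The lncRNA density exceeded the unannotated one in each of the 5 distance classes, with ratios of 1.19 to 1.69 in the melatonin library and 1.4 to 1.67 in the untreated library. It was higher on 20 of 20 chromosomes with melatonin and on 16 of 20 without, the exceptions being 7, 9, 14 and X. The ratio rests on predicted gene models, those with Gm, LOC or Rik symbols, which make up 9027 of the 9369 lncRNA genes. Without them it was 0.668 (0.402 to 1.04) with melatonin and 0.965 (0.651 to 1.38) without, and both intervals included 1.

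Pseudogene bodies held fewer peaks than unannotated sequence. They held 58 melatonin midpoints against 85.8 at the matched unannotated density, a ratio of 0.676 (0.513 to 0.873), and 50 untreated midpoints against 92.7, a ratio of 0.539 (0.4 to 0.711). With a fold of 6 or more the intervals included 1 in both libraries, at 0.885 (0.555 to 1.34) and 0.633 (0.346 to 1.06), as did that of 0.734 (0.502 to 1.04) with melatonin at equal peak numbers. The ratios were lowest at 2 to 10 kb from coding genes, where they were 0.354 and 0.192 from 4 and 2 midpoints. At 200 to 500 kb pseudogene bodies held more than unannotated sequence, with ratios of 1.61 and 1.39 from 11 and 13 midpoints (the plot of density by distance).

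**Figure D2:**
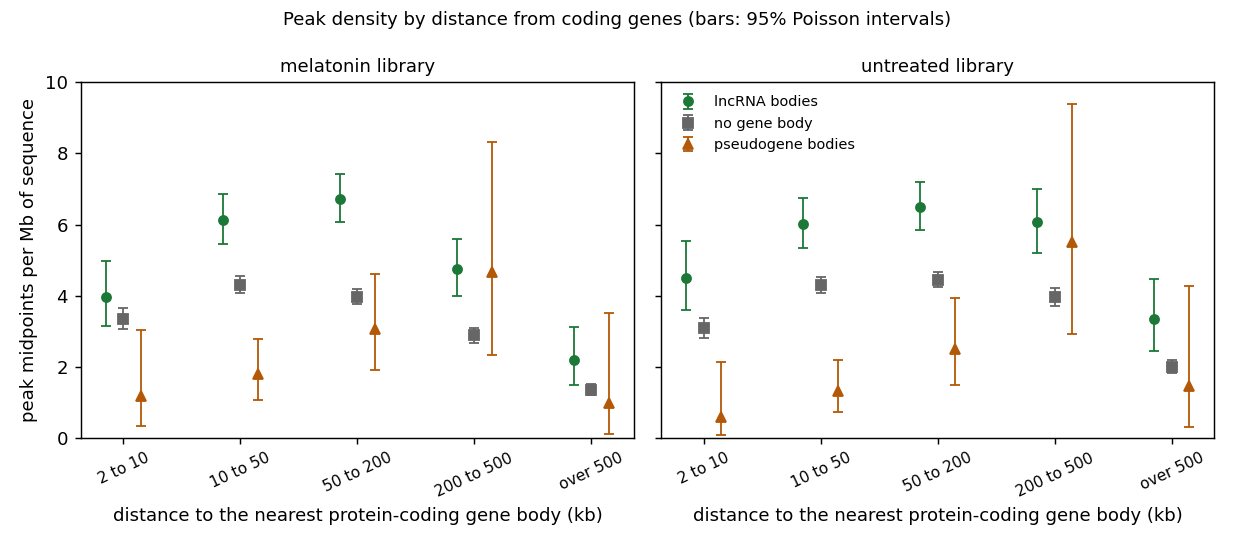
Peak midpoints per Mb (y axis) by distance to the nearest protein-coding gene body in kb (x axis), for lncRNA bodies (green circles), sequence in no gene body (grey squares) and pseudogene bodies (orange triangles), with 95% Poisson intervals, 1 panel per library. lncRNA bodies lie above unannotated sequence at every distance, by 1.19 to 1.69 times with melatonin and 1.4 to 1.67 times without.

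Of the 27923 noncoding genes, 20358 had sequence that could hold such a peak, and 803 did with melatonin (3.94%) and 783 without (3.85%). Over all 49554 genes of the table, coding ones included, 4.32% had a melatonin peak in the body and 4.11% an untreated one. Those shares count any peak in a body, while a noncoding gene counted only peaks over 2 kb from coding genes. Of 21631 coding genes, 5.54% (5.25 to 5.86) and 5.27% (4.98 to 5.57) had one, above the noncoding shares. Within the noncoding genes the classes differed: 722 of 9369 lncRNA genes had a melatonin peak (7.71%, 7.18 to 8.26) and 715 an untreated one (7.63%, 7.11 to 8.19). Of 8032 pseudogenes, 65 (0.809%, 0.635 to 1.03) and 61 (0.759%, 0.592 to 0.974) did.

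Length separated the genes with peaks from the rest. The median lncRNA gene measured 9.49 kb, and those with a peak measured 27.5 kb with melatonin and 27.4 kb without. A lncRNA gene counted only peaks over 2 kb from coding genes, and a coding gene any peak in its body. In the length classes below, lncRNA genes and pseudogenes were placed by the part of the body over 2 kb from coding genes. Coding genes were placed by full length. By these classes, lncRNA genes held peaks more often than coding genes from 1 to 100 kb (the plot of genes by length). Between 10 and 30 kb, 10% of lncRNA genes had a melatonin peak (8.94 to 11.2) against 1.71% of coding genes (1.42 to 2.05). Between 30 and 100 kb the shares were 21.2% (19 to 23.6) and 6.57% (5.92 to 7.28). From 100 to 300 kb they were 27.4% (21.8 to 33.7) and 25.4% (23.5 to 27.4), with overlapping intervals. Over 300 kb the lncRNA share was the lower one, at 28% (14.3 to 47.6) of 25 genes against 46.7% (42.6 to 50.8), and without melatonin 36% (20.2 to 55.5) against 45.1% (41 to 49.2), again with overlapping intervals. In the untreated library the shares between 30 and 100 kb were 20.8% and 6.07%. Pseudogenes of 1 to 10 kb held peaks in 0.579% and 0.609%, against 2.66% of lncRNA genes of that length in each library.

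**Figure D3:**
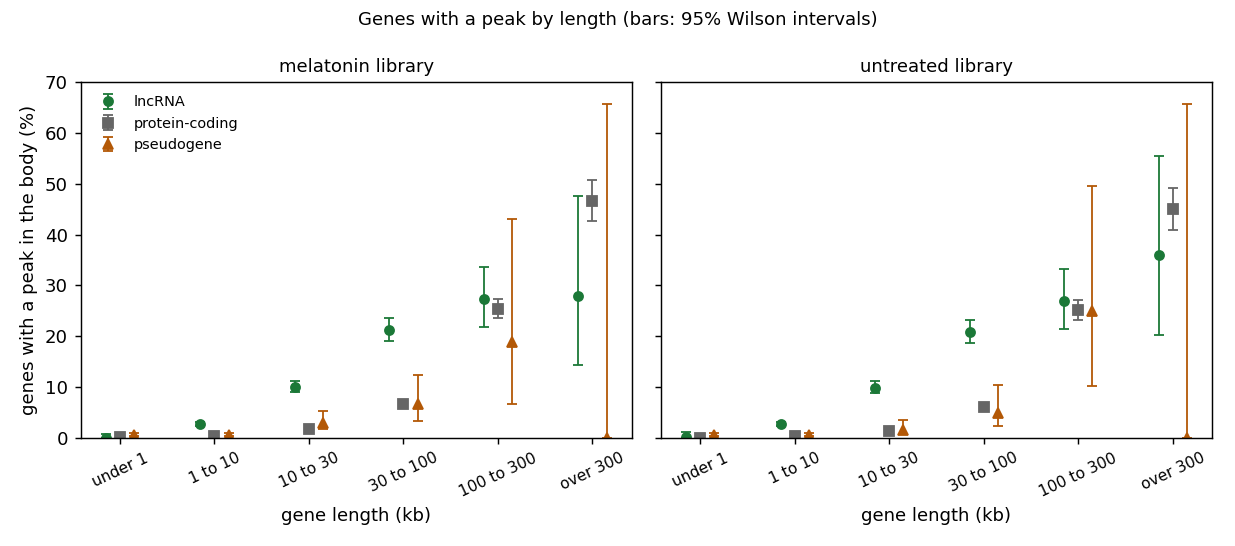
Share of genes with a peak in the body in percent (y axis) by gene length in kb (x axis), for lncRNA genes (green circles), protein-coding genes (grey squares) and pseudogenes (orange triangles), with 95% Wilson intervals, 1 panel per library. Length is the full body for coding genes and the part over 2 kb from coding genes for the others. Between 10 and 30 kb, 10% of lncRNA genes and 1.71% of coding genes had a melatonin peak, while from 100 to 300 kb the intervals overlap.

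The folds of these peaks were close to those of all peaks, and slightly fewer of the peaks had the minimum width. The authors' fold over input, the ratio of scaled ChIP to input tags with a required minimum of 4, had a median of 5.09 with melatonin and 4.94 without, against 5.11 and 4.87 over all peaks. Of the noncoding peaks, 77.1% and 75.6% had the smallest width of 1000 bp, against 79.2% and 79.6% of all peaks and 82.8% and 81.4% of peaks in coding bodies. The median distance to a coding gene was 62.9 kb and 79.2 kb. Peaks just inside the distance rule, 2 to 4 kb from a coding gene, numbered 19 and 23 with median folds of 5.22 and 4.7. Peaks just outside it numbered 17 and 10 with median folds of 6.09 and 4.72.

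High folds came with few input tags rather than many ChIP tags (the plot of fold against input). The 76 melatonin peaks with a fold of 10 or more had a median of 16.1 ChIP tags and 1 input tag, and the other 995 had 16.5 and 3.5. In the untreated library the 40 such peaks had medians of 18 and 1.6, and the other 1063 had 18.5 and 3.9. The folds of single peaks below are to be read with that count of input tags.

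**Figure D4:**
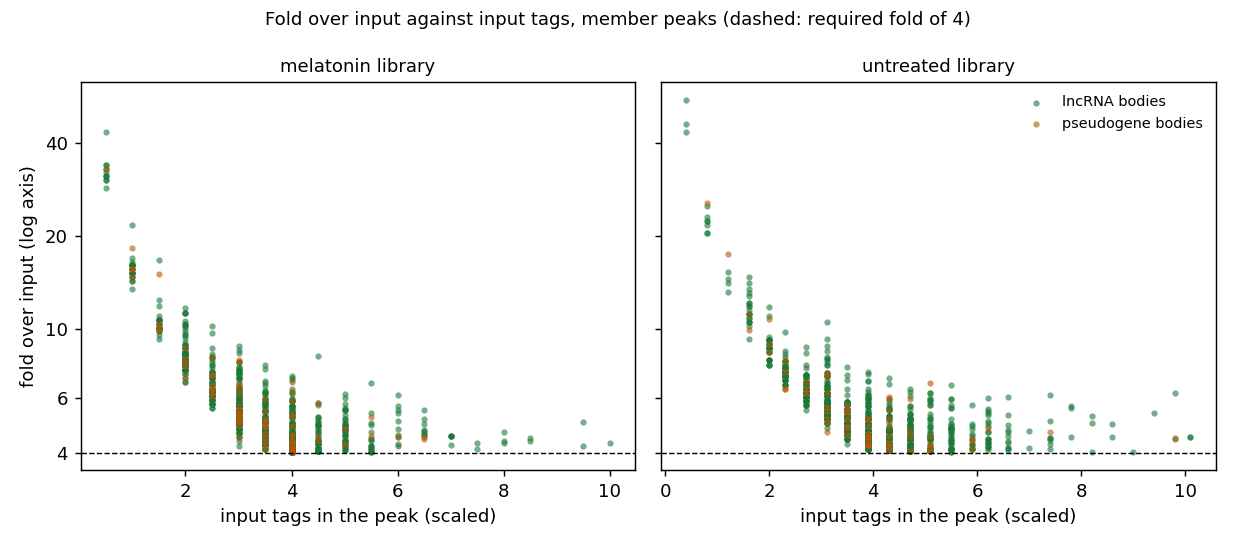
The authors' fold over input (y axis, log scale) against scaled input tags in the peak (x axis) for each peak in a lncRNA body (green) or pseudogene body (orange), 1 panel per library, with the required fold of 4 dashed. The folds above 20 lie at the left edge, where the input held 1 tag or less.

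Within lncRNA bodies the peaks showed no preferred end that held in both libraries. Density within 1 kb of a lncRNA start was 5.83 per Mb with melatonin (4.58 to 7.32) and 4.18 without (3.13 to 5.46), against 5.53 (5.18 to 5.91) and 5.9 (5.53 to 6.29) in the rest of the bodies. In the untreated library the start interval lay below that of the rest, and in the melatonin library the intervals overlapped. For lncRNA genes of 10 kb or more whose strand was known, bodies were cut into 5 equal parts from start to end. This covered 667 melatonin and 701 untreated midpoints, and no intervals were computed. The parts held 5.76, 5.25, 4.88, 6.28 and 4.89 melatonin peaks per Mb. The untreated values were 5.64, 5.49, 6.13, 5 and 6.19 per Mb.

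The lncRNA locus with most peaks was Gm15270 on chromosome 10 (24331688-24595803), whose 264 kb body surrounds Ccn2, the gene of a matrix protein also known as connective tissue growth factor. It held 7 melatonin and 12 untreated peaks. The 7 had 14.3 to 27.4 ChIP tags (median 17.8) and folds of 4.02 to 7.25 (median 4.52). The 12 had 16.5 to 40 tags (median 18.5) and folds of 4.15 to 23.07 (median 5.25). The 23.07 stood over 0.8 input tags. Only 1 peak of each list overlapped one of the other list there, so peaks of both libraries lay along the same body at different places. The ratio of 7 to 12 peaks was 0.583 (exact 95% interval 0.195 to 1.61).

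Chromosome 10 held 2 more of the 10 loci, both in the gap between the coding genes Nmbr and Cited2. Gm20125 (16951094-17095782) held 5 melatonin and 13 untreated peaks, a ratio of 0.385 (0.107 to 1.15), with folds of 4.19 to 10.65 and 4.08 to 9.29. Gm32543 (17512080-17680892) held 6 and 8, with folds of 4.22 to 28.7 and 4.17 to 55.11. The last was the highest fold of any noncoding peak, from 21.5 ChIP tags over 0.4 input tags. Cited2, which encodes a transcriptional coregulator, lay at 627 kb from Gm20125 and 42.3 kb from Gm32543.

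A930035F09Rik on chromosome 8 (128204713-128358237), whose body holds Mir21c and ends 0.354 kb from Nrp1, a receptor for semaphorins and VEGF, held more peaks with melatonin. It held 13 melatonin and 4 untreated peaks, a ratio of 3.25 (1 to 13.7). The 13 had 15.2 to 30.9 ChIP tags (median 17.8) over 2 to 7.5 input tags, and folds of 4.12 to 8.55. The 4 had 17.5 to 25.5 ChIP tags over 2 to 5.5 input tags, and folds of 4.08 to 8.97. The values of single peaks overlapped between the libraries, and the difference was in the number of peaks that passed the threshold. This locus was chosen for its number of peaks, and its interval was not adjusted for the other loci.

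The remaining 6 of the 10 loci are given with the nearer of the coding genes on either side. 2610307P16Rik on chromosome 13 (28460034-28885422), 63.5 kb from the transcription factor gene Sox4, held 9 and 8 peaks, and none overlapped a peak of the other list. Gm46401 on the same chromosome (5915706-6013963), 45.3 kb from the zinc finger factor gene Klf6, held 5 and 10, of which 3 overlapped in each list. Gm31711, also on chromosome 13 and 120 kb from Inhba, which encodes the subunit of activin A, held 5 and 7. On chromosome 2, Gm13986, 0.674 kb from the thrombospondin gene Thbs1, held 5 and 7, and Gm13481, 357 kb from the activin receptor gene Acvr2a, held 6 and 6. Gm31813 on chromosome 3, 112 kb from the corepressor gene Tbl1xr1, held 3 and 8. Each ratio of melatonin to untreated peaks at these 6 loci had an interval that included 1. The map of peaks along the loci shows where each peak lay. Outside the 10, and singled out after its values were seen, Gm19303 on chromosome 15 held 0 melatonin and 7 untreated peaks, with untreated folds of 4.08 to 6.89. The interval of its ratio, 0 to 0.694, lay below 1, again without adjustment.

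**Figure D5:**
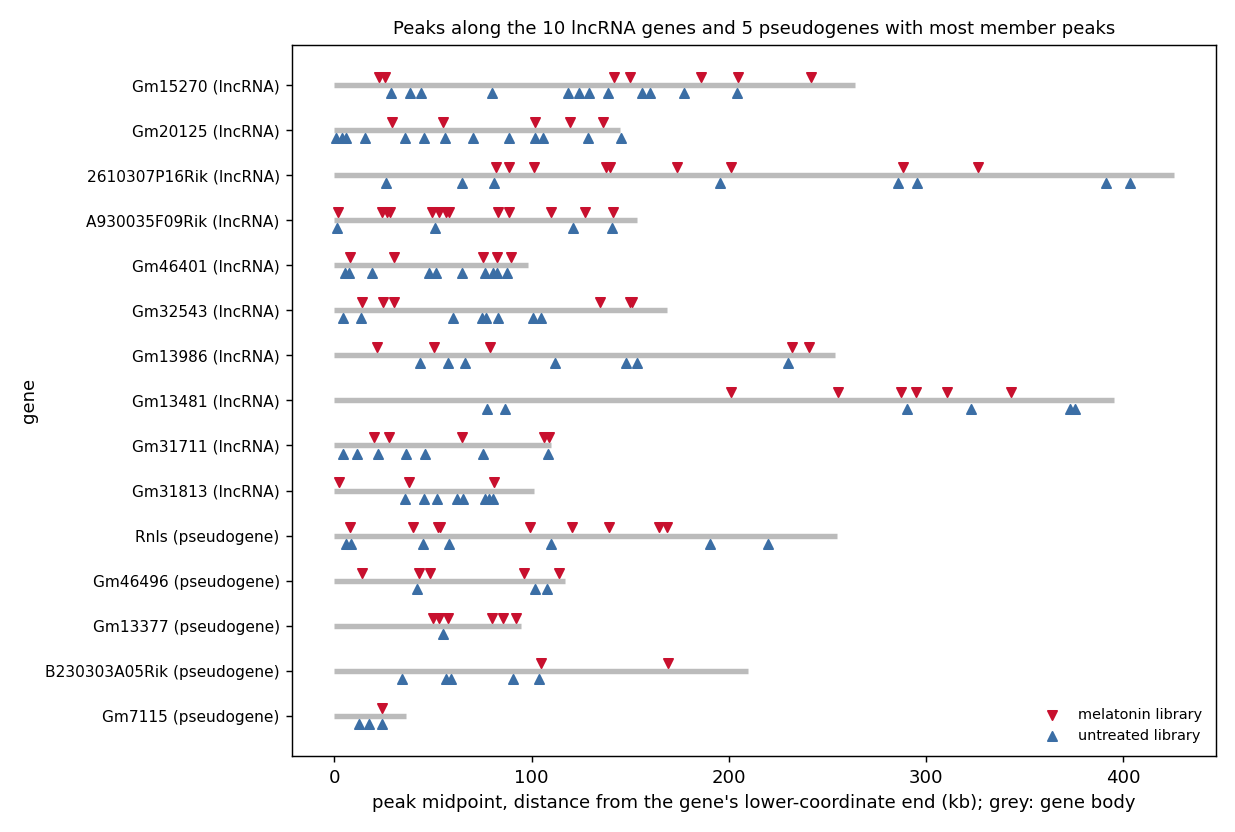
Midpoints of the peaks of the melatonin library (red, above) and the untreated library (blue, below) along the bodies (grey) of the 10 lncRNA genes and 5 pseudogenes with most peaks, in kb from each gene's lower-coordinate end (x axis). A930035F09Rik holds 13 and 4 peaks, Gm20125 holds 5 and 13, and peaks of both libraries are spread along the bodies.

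Among pseudogenes, Rnls on chromosome 19 (33137740-33392295) stood out with 9 melatonin and 7 untreated peaks. It bears the symbol of renalase, an enzyme, and the table classes it as a transcribed pseudogene of 255 kb. That class is doubtful for this symbol and was used as given, without a check. Were Rnls classed as coding, its peaks would not be counted here. Its melatonin peaks had 13.5 to 23.5 ChIP tags (median 17.4) and folds of 4.13 to 18.26, and its untreated peaks had 14.5 to 25.5 (median 16.5) and folds of 4.23 to 8.46. The next were Gm46496 on chromosome 15 with 5 and 3, Gm13377 on chromosome 2 with 6 and 1, B230303A05Rik on chromosome 13 with 2 and 5, and Gm7115 on chromosome 3 with 1 and 3. These 5 are 36.6 to 255 kb long, while the median pseudogene measured 0.961 kb. The named families held few peaks, which is also true of pseudogenes in general, of which 0.809% and 0.759% held one. None of 292 olfactory receptor pseudogenes and none of 256 vomeronasal receptor pseudogenes had a peak in either list, which allows shares of up to 1.03% and 1.17%. Those limits lie above the shares of all pseudogenes in a single list. With a peak in either list counted, the share of all pseudogenes was 1.41% (1.17 to 1.69). The limits rest on 3 counts and that interval is a Wilson one, so a lower share in these families was not shown. Gene length was not matched in this comparison. Of 240 ribosomal protein pseudogenes, Rps12-ps1 had an untreated peak.

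The highest folds at peaks found in 1 list only stood over nearly empty input. In the melatonin list they were 33.91 at Gm41405 and at Gm46921, 33.04 at Gm34361, 32.17 at E230016M11Rik and 31.3 at 4930412B13Rik, each from 15.7 to 17 ChIP tags over 0.5 input tags. The peak of 4930412B13Rik also lies in Gm13986, since the bodies overlap, and Gm34450 and A430048G15Rik tied with it at 31.3. In the untreated list they were 55.11 at Gm32543, 46.14 at Gm31962, 43.58 at 4930401C15Rik, 24.99 at Gm45918 and 23.07 at Gm15270. Among pseudogenes they were 33.04 at Gm7214, 18.26 at Rnls and 15.65 at Gm11581 with melatonin. Without melatonin they were 25.63 at Gm35262, 17.52 at Gm19108 and 11.21 at Gm18043.

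Few peaks recurred at the same place, in noncoding bodies as over the whole lists. Of all peaks, 6.12% (5.6 to 6.68) with melatonin and 5.6% (5.12 to 6.11) without overlapped a peak of the other list. Of the melatonin peaks in noncoding bodies, 83 (7.75%, 6.3 to 9.51) overlapped a peak of the untreated list by 1 bp or more, and of the untreated ones 84 (7.62%, 6.19 to 9.33) overlapped a melatonin peak. Peaks in coding bodies did so in 3.55% (2.86 to 4.39) and 3.38% (2.72 to 4.19), below those intervals, and peaks in no gene body in 7.11% (6.37 to 7.92) and 6.23% (5.58 to 6.95), which overlapped them. By gene the lists shared more. A peak in both lists was present at 297 noncoding genes, 37% of the genes with a melatonin peak and 37.9% of those with an untreated one, and at 76 of the 297 the peaks overlapped. The 297 had a median length of 46.6 kb. Coding genes shared more, with 578 in both lists, of 1199 with a melatonin peak and 1139 with an untreated one. Those 578 had a median length of 206 kb. Of all genes of the table, 2140 had a melatonin peak, 1230 of them in that list alone. An untreated peak was found at 2036, for 1126 of them in that list alone. A peak in the melatonin list alone was found at 506 noncoding genes and in the untreated list alone at 486. Over all genes of the table, 2.48% had a peak in the melatonin list alone and 2.27% in the untreated list alone, and the noncoding shares were 2.49% and 2.39%.

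Overlapping peaks were ranked by the mean percentile of their folds. The first was at Gm14051 on chromosome 2, a gene that overlaps the vitamin C transporter gene Slc23a2 elsewhere in its body. Its melatonin peak had 16.5 ChIP tags over 2 input tags, a fold of 8.26, and its untreated peak 33 over 3.1, a fold of 10.57. At Gm36827 on chromosome 10 the values were 21.7 over 2.5 and 19.5 over 2.3, folds of 8.7 and 8.33. At 7530428D23Rik on chromosome 3 the folds were 43.48 and 5.39, from 21.7 ChIP tags over 0.5 input tags and 50.5 over 9.4. The ChIP tags there differed in the opposite direction to the folds. Gm35446, 1700017G19Rik, 4930412B13Rik, Gm5833 and the transcribed pseudogene Gm31520 were also among the first 10, with folds of 5.98 to 16.96 in the melatonin list and 6.23 to 8.17 in the untreated list. Gm40747 and 4930459C07Rik shared the same pair of peaks, with folds of 5.94 and 8.01.

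Noncoding genes with known roles were listed to see how many held a peak. Lists of 136 noncoding gene symbols, covering imprinted, X-linked, abundant, skeletal, neural, blood and miRNA genes, gave 86 genes that could hold a peak. None of the 86 had a melatonin peak, which allows a share of up to 3.49%, and 3 had an untreated peak (3.49%, 1.19 to 9.76). These were Airn, the imprinted antisense transcript of Igf2r, with a fold of 4.06, Dlx6os1, a transcript of the Dlx5 and Dlx6 locus, with 4.31, and Rmst, a neural lncRNA, with 6.41. By list, an untreated peak was found in 1 of 8 imprinted genes (Airn), 1 of 18 skeletal and mesenchymal lncRNA genes (Rmst) and 2 of 12 neural lncRNA genes (Rmst and Dlx6os1). No gene had one among 6 X-linked genes, 16 abundant or growth-linked genes, 11 miRNA host genes, 23 miRNA genes linked to bone formation, and 8 blood and muscle genes. The untreated share was near that of all genes, 4.11%. The 86 include 28 miRNA genes, which are too short to compare. Of the 54 listed lncRNA genes, none had a melatonin peak (95% Wilson interval up to 6.64%, allowing up to 5.56% by 3 counts), against 7.71% of all lncRNA genes. With 3 untreated peaks (5.56%, 1.91 to 15.1), they did not differ detectably from the 7.63% of all lncRNA genes. Malat1 and Neat1, abundant nuclear lncRNAs, lay 468 and 426 kb from the nearest melatonin peak and 1195 and 1224 kb from the nearest untreated one. For the imprinted H19 and Meg3 the distances were 270 and 444 kb with melatonin and 773 and 525 kb without. Xist, which silences the X chromosome, lay 58.7 kb from a melatonin and 5.54 kb from an untreated peak. The long genes Mir100hg (239 kb), Mir99ahg (229 kb) and Sox2ot (118 kb) had none in either list, as was the case for most lncRNA genes of 100 to 300 kb.

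By symbol, named and predicted lncRNA genes were apart in the melatonin library but not in the untreated one. Of 342 with a symbol that is not a predicted model's, 12 had a melatonin peak (3.51%, 2.02 to 6.03), against 710 (7.87%, 7.33 to 8.44) of 9027 predicted models. The untreated shares were 22 (6.43%, 4.29 to 9.55) and 693 (7.68%, 7.15 to 8.24), with overlapping intervals. The median lengths were 10.1 and 9.45 kb, and whether the libraries differ in this was not tested. The named ones included Ptgs2os and Igf1os, which bear the names of antisense partners of the prostaglandin synthase gene Ptgs2 and the growth factor gene Igf1. Ptgs2os held 2 peaks in each list, with melatonin folds of 4.24 and 4.78 and untreated folds of 5.34 and 7.48, and both pairs overlapped. Igf1os held 1 in each list, with folds of 7.3 and 7.26, which did not overlap. Zmiz1os1 held 6 and 3.

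Small RNA genes are so short that 1 peak covers the whole gene and its surroundings. With melatonin, the snoRNA genes Gm25408, Gm26075, Gm26289 and LOC115488957 had folds of 5.22, 4.85, 4.35 and 4.61, and the snRNA genes Gm22628 and Gm25056 had 5 and 4.64. Without melatonin, the snRNA gene Gm22656 had a peak with a fold of 4.98. Of the 7 melatonin peaks at small RNA genes, 1 had its midpoint inside the gene. Among the other classes, the T cell receptor beta locus Tcrb held 3 melatonin and 4 untreated peaks in 667 kb, while Igh and Igk, of 2751 and 3171 kb, held none.

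The number of noncoding peaks was similar in the libraries, with a ratio of melatonin to untreated of 0.971 (exact 95% interval 0.892 to 1.06). Among peaks with a fold of 6 or more it was 1.19 (1.01 to 1.4), from 324 and 272 peaks. The whole lists also held more melatonin than untreated peaks at that fold, 2317 and 2017, so the excess was not particular to noncoding bodies. Without chromosomes 10 and 13 the ratio of noncoding peaks was 1.05 (0.948 to 1.15). Over all peaks, without a fold limit, the ratio was 0.921, and over peaks in no gene body 0.886 (0.85 to 0.923). By chromosome, the interval excluded 1 at 3 of 20, by counting error alone and without adjustment over chromosomes. Chromosome 8 held 52 and 29 (1.79, 1.12 to 2.93), and 39 and 25 (1.56, 0.921 to 2.69) without A930035F09Rik. Chromosome 14 held 51 and 31 (1.65, 1.03 to 2.66), and chromosome 13 held 102 and 139 (0.734, 0.563 to 0.954). All peaks of chromosome 13 showed a ratio of 0.791, while those of chromosomes 8 and 14 showed 0.994 and 1.03. Chromosome 10 held the most noncoding peaks, 137 and 169, and the X chromosome the fewest, 3 and 2. In each list 42.3% and 46% of the noncoding peaks lay in 208 genes with 3 or more peaks over both lists, so intervals that treat peaks as independent are too narrow.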

How the data were processed

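Peaks were called by the authors with HOMER in histone style, each ChIP library against its own input, per the file headers. A window of 1000 bp required a Poisson p of 0.001 (18 tags with melatonin, 17 without), a fold over input of 4 and a p-value over input of 1e-04, per the file headers. The deposited normalized tag count is a signal per 10000000 tags, and ChIP and input tags are deposited as a signal scaled to the shallower library. The deposited findPeaks score was not used. Fold over input is a ratio made by the authors, as is the unadjusted Poisson p-value over input. All of these served to describe, rank or filter peaks of 1 list at a time. Per the submitters' processing notes, BWA 0.7.13, Picard 1.126 and MACS2 2.1.0 were used, while the headers name HOMER (version not given in the sources used here). Those notes name mm39, but peaks on chromosomes 3 and 7 lie beyond those chromosomes' ends in mm39. The share of midpoints in coding genes was 29.1% and 27.8% in place, and 37.7% to 43.2% after moves of 100 to 1000 kb, so GRCm38 was used. The labels' treatment protocol reads alike for all samples, and groups follow the treatment label.

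Genes came from the RefSeq GRCm38.p6 table, which gives no strand. Expected densities used unannotated sequence of the same chromosome and distance class (edges 2, 10, 50, 200 and 500 kb). Intervals are 95% (Wilson, exact Poisson, exact binomial) and cover counting error only, since PCR reads with no molecular identifier need not be independent molecules. A share at a count of 0 is bounded by 3 counts. With 1 ChIP library per condition no p-value between conditions was computed, and intervals of melatonin to untreated ratios take peaks, not samples, as units. The code was tested on simulated data. Scripts used pandas 2.3.3, NumPy 2.4.6 and SciPy 1.17.1.

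Genes are named by rule: the 10 lncRNA genes and 5 pseudogenes with most peaks, the 5 and 3 with the highest fold at a peak of 1 list only, up to 10 genes with overlapping peaks by mean fold percentile, every small RNA gene, every listed gene with a peak, and Malat1, Neat1, H19, Meg3 and Xist. Further names were chosen after their values were seen. The peak class, lists and rule were chosen with earlier results of these data known. Alternatives were a fold of 6, a p of 1e-05, a 10 kb flank, equal peak numbers, midpoints, other overlap rules, no predicted models and no chromosomes 10 and 13. The input libraries' own tags outside peaks were not analysed here.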

Additional observations from a re-analysis of the deposited data

How the results depend on the processing

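Of 104 values recomputed under 10 alternatives, 74 stayed within the interval of the reported value or, for counts, within 1.5 times of it. With a fold of 6 or more, the peaks in noncoding bodies numbered 324 with melatonin and 272 without, lncRNA genes with a peak 272 and 225, and the share overlapping the other list was 1.85% and 2.21%. Listed genes with an untreated peak then numbered 1, the melatonin to untreated ratio was 1.19 (1.01 to 1.4), and the pseudogene density ratio was 0.885 (0.555 to 1.34) with melatonin and 0.633 (0.346 to 1.06) without, both intervals now including 1. The melatonin to untreated ratio thus changed its side of 1, as it did over the whole lists, with 2317 and 2017 peaks of that fold. The cause was not tested. With 3849 peaks per list, those of lowest p, noncoding peaks numbered 548 and 556, lncRNA genes 417 and 406, overlap was 5.47% and 5.4%, listed untreated genes numbered 1, the untreated lncRNA density ratio was 1.43, and the melatonin pseudogene density ratio was 0.734 (0.502 to 1.04). Fewer peaks enter both settings by construction. Without predicted gene models, noncoding peaks numbered 37 and 47, lncRNA genes 12 and 22, melatonin overlap was 10.8%, the melatonin to untreated ratio was 0.787, and the lncRNA density ratios turned to 0.668 and 0.965. Fewer genes enter this setting, and why the density ratio turned was not tested. Without chromosomes 10 and 13 the untreated lncRNA density ratio was 1.23, and the melatonin to untreated ratio was 1.05 (0.948 to 1.15), also on the other side of 1. Asking for overlap of at least 50% of the shorter peak gave 5.04% and 4.9%, and accepting a peak within 1 kb gave 11.3% and 11%. A p of 1e-05, other distances from coding genes and placement by midpoint moved no value beyond its interval or, for counts, beyond 1.5 times. Density already uses midpoints, so that alternative gives no density value of its own.

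No paired analysis was possible because each condition had 1 ChIP library. Nor was any replicate left out, for the same reason. With about 1.12% and 1.24% of tags in peaks and folds near the required 4, a region missing from a list was not shown to lack the mark. A share of repeats or of unmappable sequence in gene bodies was not analysed here.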

Other observations

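Noncoding bodies that lie inside or beside coding genes also held peaks, which the account above leaves out. Peaks inside a coding gene body that also overlapped a noncoding body numbered 146 with melatonin and 126 without. One of them fell in Mirt2, a lncRNA of the blood and muscle list, in the melatonin list. Kcnq1ot1, the imprinted antisense transcript of 83.4 kb inside Kcnq1, held none, its nearest peaks lying 362 kb away with melatonin and 54.9 kb away without. Dnm3os, the 7.93 kb transcript within Dnm3 that gives rise to miRNAs, had none in its body, with the nearest at 1.57 and 2.41 kb.

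Pvt1, a 222 kb lncRNA gene downstream of Myc that lies over 2 kb from coding genes along its whole length, had no peak in its body in either list, and its nearest peaks lay 22.3 kb and 11.5 kb away.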
